A study of Mus musculus with 20 samples.

Results

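Sgk1, Ddit4 and 8 other genes known to respond to glucocorticoids (Tsc22d3, Fkbp5, Klf9, Klf15, Zbtb16, Mt1, Mt2 and Nr3c1, the receptor's own gene) were followed through the plantaris muscle of old mice after surgery and senolytic treatment. They were chosen by name, as 10 of the 22660 gene rows in the table of estimated RNA counts, and all 10 passed the minimum of 10 counts in at least 5 mice in every comparison. Sgk1 was picked for its opposite response to treatment in the 2 kinds of surgery. Every contrast of its 4 groups is therefore a description, given with no p-value, and nothing is read from whether it was called. Ddit4 had been singled out by the study in these same mice for its level with treatment under overload, and that contrast is likewise a description. The mice were male C57BL/6J animals, 2 years old by the labels, and fell into 4 groups of 5 different animals. Mechanical overload (MOV) of the plantaris was made by removing part of the soleus and gastrocnemius, the muscles that share its work, and sham mice had a control operation. Senolytic-treated mice received dasatinib, a tyrosine kinase inhibitor, at 5 mg/kg with quercetin, a plant flavonoid, at 50 mg/kg (D + Q) by gavage, and the others received vehicle. Doses fell on days 7 and 10 after surgery and muscle was taken on day 14, except that the series text places the second dose of sham mice on day 14. Groups are named by treatment and surgery, as in vehicle sham or D + Q MOV.

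Glucocorticoids enter the cell and bind the receptor encoded by Nr3c1, which is held ready by chaperones, moves to the nucleus and binds DNA at short palindromic sites. Among its direct targets are Fkbp5, Tsc22d3 (also called GILZ), Klf9, Klf15 and Zbtb16, which damp the receptor, restrain inflammation or change transcription, and in skeletal muscle the hormone is known for lowering protein synthesis and raising protein breakdown. Several members answer other inputs as well: Sgk1 to growth factors and osmotic stress, Ddit4 to hypoxia and energy stress, and the metallothioneins Mt1 and Mt2 to zinc and inflammatory signals.

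Between 17887532 and 26234518 counts were available per mouse, and levels are given as CPM, counts divided by the library total, as scaled by edgeR's TMM method, and expressed on the usual CPM scale. The scaling factors were 0.83 to 0.885 in sham and 1.06 to 1.23 in MOV mice, so they moved with surgery. Without them, the median log2 difference of all genes between MOV and sham shifted up by 0.40, and the split of called genes went from 5730 higher and 5695 lower to 9695 higher and 2032 lower. The muscle also changed in makeup. The summed level of 6 muscle fiber markers went from 122390 to 141095 CPM in sham to 68508 to 98775 CPM in MOV mice, that of 6 macrophage markers from 45.4 to 129 to 227 to 689 CPM, and that of 5 fibroblast markers from 359 to 949 to 4444 to 11048 CPM. The summed endothelial markers were 149 to 221 CPM in sham and 226 to 294 CPM in MOV mice, and the adipocyte markers 13.2 to 43.5 and 6.86 to 19.9 CPM. Mural markers lay at 280 to 394 CPM in sham and 345 to 473 CPM in MOV mice, satellite cell markers at 3.11 to 7.48 and 6.06 to 9.07 CPM, Schwann markers at 14.6 to 29.8 and 13.04 to 40.2 CPM, and T cell markers at 1.12 to 2.702 and 1.61 to 4.51 CPM. In RNA from whole muscle, fewer cells of a type and less RNA per cell cannot be told apart, and the part these markers play in the differences below was not tested.

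Promoter sequence was available for 8 of the 10 members, as 15 start sites in RefSeq (assembly GRCm38.p6), each a short stretch around the start. Zbtb16 and Nr3c1 had no entry. The full palindrome GNACANNNTGTNC, read on both strands, was held by 0.475% of all 32851 promoters in the table. Of the member promoters it was in 1 of the 6 of Sgk1 and in the 1 of Mt1. The single arm TGTTCT, which can overlap the palindrome, was in 19% of promoters and, among the members, in promoters of Sgk1 and Tsc22d3. The metal response cores TGCACNC and TGCGCNC were in 12.6% and 15.4%, and at least 3 of either core were in 1.97%. The Mt1 promoter held 3 such cores and the Mt2 promoter 4. Windows of 3 members are shown, Sgk1 because the comparisons below start from it, and Mt1 and Mt2 because their levels moved together between MOV mice. Their within-group correlation was r = 0.927 in MOV mice and 0.402 in sham mice. All are on the forward strand, and capitals mark the matches.
Sgk1, chr10:21993640-21993769: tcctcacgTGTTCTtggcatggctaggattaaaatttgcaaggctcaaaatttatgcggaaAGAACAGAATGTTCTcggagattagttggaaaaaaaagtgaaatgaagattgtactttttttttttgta
Mt1, chr8:94178939-94179088: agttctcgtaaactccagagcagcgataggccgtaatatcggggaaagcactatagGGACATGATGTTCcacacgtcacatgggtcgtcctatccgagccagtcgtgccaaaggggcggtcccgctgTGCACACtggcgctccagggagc
Mt2, chr8:94172368-94172497: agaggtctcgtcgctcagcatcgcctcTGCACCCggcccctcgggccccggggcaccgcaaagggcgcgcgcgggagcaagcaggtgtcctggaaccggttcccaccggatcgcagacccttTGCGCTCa
In the Sgk1 window, from 1 of the gene's 6 listed start sites, the palindrome began 188 bases before that start. In the Mt1 window it began 94 bases before the start, and the Mt2 window held 2 of the 4 metal cores. A match describes letters only, and no binding was measured.

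Sgk1 (ENSMUSG00000019970, GRCm39 chr10:21758083-21875802, forward strand) encodes a kinase of the AKT family that is induced by steroids and spares muscle protein in disuse. Its level in vehicle sham mice was 166, 139, 159, 172 and 102 CPM, with a mean of 147.6 ± 28.2 (SD, n = 5). In D + Q sham mice it was 72.6, 64.9, 67.7, 79.1 and 74.1 CPM, with a mean of 71.7 ± 5.58 (SD, n = 5). All D + Q sham mice lay below all vehicle sham mice, although vehicle sham mouse 5 stood nearer to them than the other vehicle mice did.
After overload the vehicle mice had 62.1, 59.6, 51.7, 57.5 and 80.8 CPM, a mean of 62.4 ± 11.01 (SD, n = 5), and the D + Q mice 73.2, 68.3, 74.5, 61.0 and 83.0 CPM, a mean of 72.0 ± 8.14 (SD, n = 5). These ranges overlapped. Vehicle sham was thus the high group, and the D + Q sham, D + Q MOV and vehicle MOV ranges all overlapped each other.
On the log2 scale, the difference of D + Q from vehicle was -1.06 in sham and 0.19 in MOV mice, and the latter minus the former was 1.25. Those values are what Sgk1 was chosen on. The difference of MOV from sham was -1.24 with vehicle and 0.04 with D + Q. The mean of the MOV effect over the 2 treatments was a log2 difference of -0.63. It draws on the same 20 mice, the high vehicle sham group among them, so it too is a description with no test. With TMM factors, that mean averages a fall in vehicle mice with a difference near 0 in D + Q mice. Over the other processing settings with all mice kept, the D + Q difference ranged from -0.0028 to 0.41. The vehicle difference ranged from -1.25 to -0.86. With total counts in place of TMM factors the mean over treatments was -0.23.

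**Figure D1:**
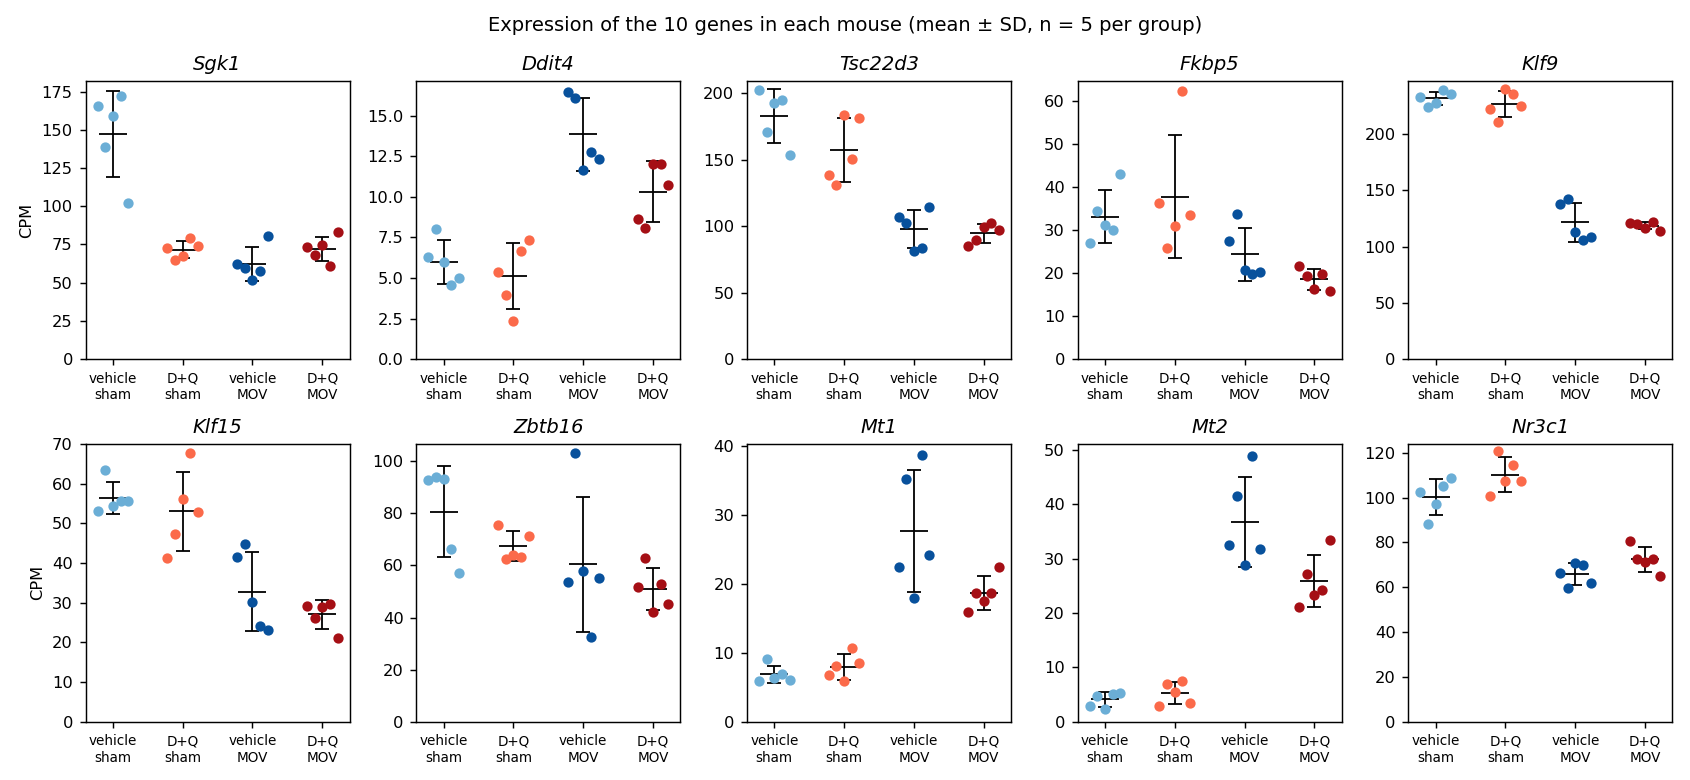
Levels of the 10 members in CPM for each mouse, in panels by gene with the 4 groups along the horizontal axis; points are mice and bars the mean ± SD (n = 5). Sgk1 is high in vehicle sham mice, while Ddit4, Mt1 and Mt2 are higher in all MOV mice than in all sham mice of the same treatment.

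Averaged over treatments, the 9 members other than Sgk1 were all called between MOV and sham muscle. Ddit4, Mt1 and Mt2 went upward and the others downward. Sgk1 was lower as well, as described above. Overload altered most of the transcriptome, since 72.8% of the 15700 genes tested were called in this comparison, 36.5% higher and 36.3% lower. A call is therefore no sign that a member stands apart. The median log2 difference of the members was -0.62, beside -0.01 for all genes. Among vehicle mice 9 members were called, 3 higher and 6 lower, where 60.5% of 14601 genes were called, 30.7% higher and 29.8% lower. Among D + Q mice there were also 9, 3 higher and 6 lower, where 65.3% of 14913 genes were called, 34.4% higher and 30.9% lower. The member not called was Zbtb16 with vehicle and Sgk1 with D + Q. Sgk1 was chosen on the same mice, and of the other 9 members 8 were called with vehicle and 9 with D + Q. The groups did not overlap for 8 members with vehicle and for 8 with D + Q, in both cases 3 higher and 5 lower, with Sgk1 among the 5 lower with vehicle. The same was true of 46.4% of all genes with vehicle (23.8% higher, 22.6% lower) and of 53% with D + Q (26.5% higher, 26.5% lower).

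Tsc22d3 encodes GILZ, a leucine zipper protein that carries much of the hormone's anti-inflammatory action. It lay between 153 and 202 CPM in vehicle sham mice, 131 and 184 CPM in D + Q sham mice, 81.4 and 114 CPM in vehicle MOV mice and 85.3 and 102 CPM in D + Q MOV mice. Every MOV mouse was below every sham mouse. The log2 difference averaged over treatments was -0.82 ± 0.0745 (SE, n = 10 each; adjusted p = 8.25e-10, edgeR).

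Klf9 is a zinc finger factor of the hormone's early response. Its level was tightly held in sham muscle, at 233, 225, 228, 239 and 236 CPM with vehicle and 222, 211, 241, 236 and 225 CPM with D + Q. After overload it was 138, 142, 113, 106 and 109 CPM with vehicle and 121, 120, 116, 122 and 114 CPM with D + Q. No MOV mouse reached the sham range, and in vehicle MOV mice the first 2 animals stood above the other 3. The log2 difference averaged over treatments was -0.94 ± 0.0504 (SE, n = 10 each; adjusted p = 2.92e-14, edgeR), which had the smallest adjusted p of the 10 members.
Klf15 encodes a factor that drives amino acid breakdown in muscle. It was 53.2, 63.4, 54.5, 55.6 and 55.8 CPM in vehicle sham and 41.3, 47.4, 56.1, 67.8 and 52.9 CPM in D + Q sham mice. It was 41.5, 44.8, 30.3, 24.1 and 23.1 CPM in vehicle MOV and 29.3, 26.3, 29.0, 29.8 and 21.2 CPM in D + Q MOV mice. Within each treatment every MOV mouse was below every sham mouse, with vehicle MOV mice 1 and 2 again the highest after overload. The log2 difference averaged over treatments was -0.89 ± 0.119 (SE, n = 10 each; adjusted p = 1.72e-06, edgeR).

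Fkbp5 encodes an HSP90 co-chaperone that lowers the receptor's affinity for hormone and is itself induced by it. Its level was 26.9, 34.4, 31.2, 29.9 and 43.0 CPM in vehicle sham and 36.4, 25.8, 30.8, 62.3 and 33.6 CPM in D + Q sham mice. It was 27.5, 33.7, 20.6, 19.8 and 20.1 CPM in vehicle MOV and 21.5, 19.4, 16.4, 19.7 and 15.7 CPM in D + Q MOV mice. With D + Q the ranges of sham and MOV were apart, and with vehicle they overlapped through MOV mice 1 and 2. The log2 difference was -0.99 ± 0.235 (SE, n = 5 each; adjusted p = 0.00463, edgeR) with D + Q and -0.44 ± 0.167 (SE, n = 5 each; adjusted p = 0.0393, edgeR) with vehicle. The vehicle call rested on the scaling, since with total counts the difference was -0.07 and was not called. It was also lost without any 1 of vehicle MOV mice 3, 4 or 5 or vehicle sham mice 2, 3 or 5, where the difference was -0.33 to -0.45. The difference between these 2 effects was -0.59 on the log2 scale (adjusted p = 0.855, edgeR), so they were not shown to differ.
Zbtb16 encodes PLZF, a transcriptional repressor strongly induced by the hormone in several tissues. It was 92.6, 94.1, 93.0, 66.3 and 57.2 CPM in vehicle sham and 53.5, 103.2, 57.9, 32.6 and 55.0 CPM in vehicle MOV mice, with vehicle MOV mouse 2 above every sham mouse. With D + Q it ranged from 62.4 to 75.6 CPM in sham and from 42.1 to 62.7 CPM in MOV mice. The log2 difference was -0.41 ± 0.285 (SE, n = 5 each; adjusted p = 0.239, edgeR) with vehicle and -0.36 ± 0.0967 (SE, n = 5 each; adjusted p = 0.00399, edgeR) with D + Q. Without vehicle MOV mouse 2 the vehicle value was -0.66 and was called. With all 20 mice in one fit the D + Q value was -0.41 and was not called, and with total counts it was -0.0026. Averaged over treatments it was -0.42 ± 0.159 (SE, n = 10 each; adjusted p = 0.0256, edgeR), and with total counts -0.03, not called.
Nr3c1, the receptor itself, was 88.2 to 109 CPM in vehicle sham and 101 to 121 CPM in D + Q sham mice. It was 59.8 to 71.0 CPM in vehicle MOV and 65.2 to 80.6 CPM in D + Q MOV mice, so that all MOV mice were below all sham mice. The log2 difference averaged over treatments was -0.61 ± 0.0492 (SE, n = 10 each; adjusted p = 4.16e-11, edgeR).
With total counts in place of TMM factors the same mean log2 difference was smaller for 4 of the members that fell, at -0.43 for Tsc22d3, -0.54 for Klf9, -0.49 for Klf15 and -0.21 for Nr3c1, and edgeR still called all 4.

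Ddit4 (ENSMUSG00000020108, GRCm39 chr10:59785491-59788492, reverse strand), also called REDD1, encodes a stress-induced inhibitor of mTORC1, the kinase complex that drives muscle protein synthesis. It moved the other way from the 7 members that fell. Vehicle sham mice had 6.29, 8.05, 5.99, 4.57 and 4.99 CPM, and D + Q sham mice 5.34, 3.96, 2.34, 6.65 and 7.31 CPM. Vehicle MOV mice had 16.4, 16.1, 11.6, 12.7 and 12.4 CPM, and D + Q MOV mice 8.64, 8.10, 12.0, 12.1 and 10.8 CPM.
Each MOV mouse exceeded every sham mouse. The log2 difference of MOV from sham was 1.22 ± 0.154 (SE, n = 5 each; adjusted p = 8.01e-06, edgeR) with vehicle and 1.04 ± 0.253 (SE, n = 5 each; adjusted p = 0.00312, edgeR) with D + Q. The study named the gene from a difference between these same vehicle and D + Q MOV mice. Neither p-value is therefore free of that choice. That difference, of D + Q from vehicle within MOV, was -0.44 on the log2 scale, with D + Q mice 3 and 4 inside the vehicle range. In sham mice it was -0.24 ± 0.267 (SE, n = 5 each; adjusted p = 0.819, edgeR), with a 95% interval of -0.82 to 0.34.

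Mt1 and Mt2 encode small cysteine-rich proteins that bind zinc and copper, and their genes lie side by side, 5502 bases apart. Mt1 was 5.97, 9.03, 6.31, 6.89 and 6.11 CPM in vehicle sham and 6.70, 8.05, 5.85, 10.6 and 8.53 CPM in D + Q sham mice. After overload it was 22.4, 35.2, 17.9, 38.6 and 24.1 CPM with vehicle and 15.8, 18.7, 17.5, 18.6 and 22.5 CPM with D + Q. All MOV mice were above all sham mice, and vehicle MOV mice 2, 4 and 5 stood above every D + Q MOV mouse.
Mt2 was 2.89, 4.77, 2.42, 5.15 and 5.34 CPM in vehicle sham and 2.98, 6.95, 5.51, 7.52 and 3.40 CPM in D + Q sham mice. After overload it was 32.5, 41.5, 28.9, 48.9 and 31.9 CPM with vehicle and 21.1, 27.2, 23.4, 24.3 and 33.5 CPM with D + Q. It gave the largest differences of the 10 members. The log2 difference of MOV from sham was 3.17 ± 0.228 (SE, n = 5 each; adjusted p = 4.19e-07, edgeR) with vehicle and 2.33 ± 0.245 (SE, n = 5 each; adjusted p = 1.08e-05, edgeR) with D + Q. For Mt1 it was 2.02 ± 0.217 (SE, n = 5 each; adjusted p = 8.65e-06, edgeR) and 1.26 ± 0.139 (SE, n = 5 each; adjusted p = 7.86e-07, edgeR).
The difference between the 2 treatments in this MOV effect was -0.79 for Mt1 and -0.87 for Mt2 on the log2 scale, at unadjusted p = 0.0106 and 0.0258 and adjusted p = 0.767 and 0.809 (edgeR). These were not called. The Mt2 gene shares 1222 bases with Gm45774, a gene on the opposite strand that also has a row in the table, and since the sources used here do not say whether counting used strand, reads of the pair cannot be told apart.

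**Figure D2:**
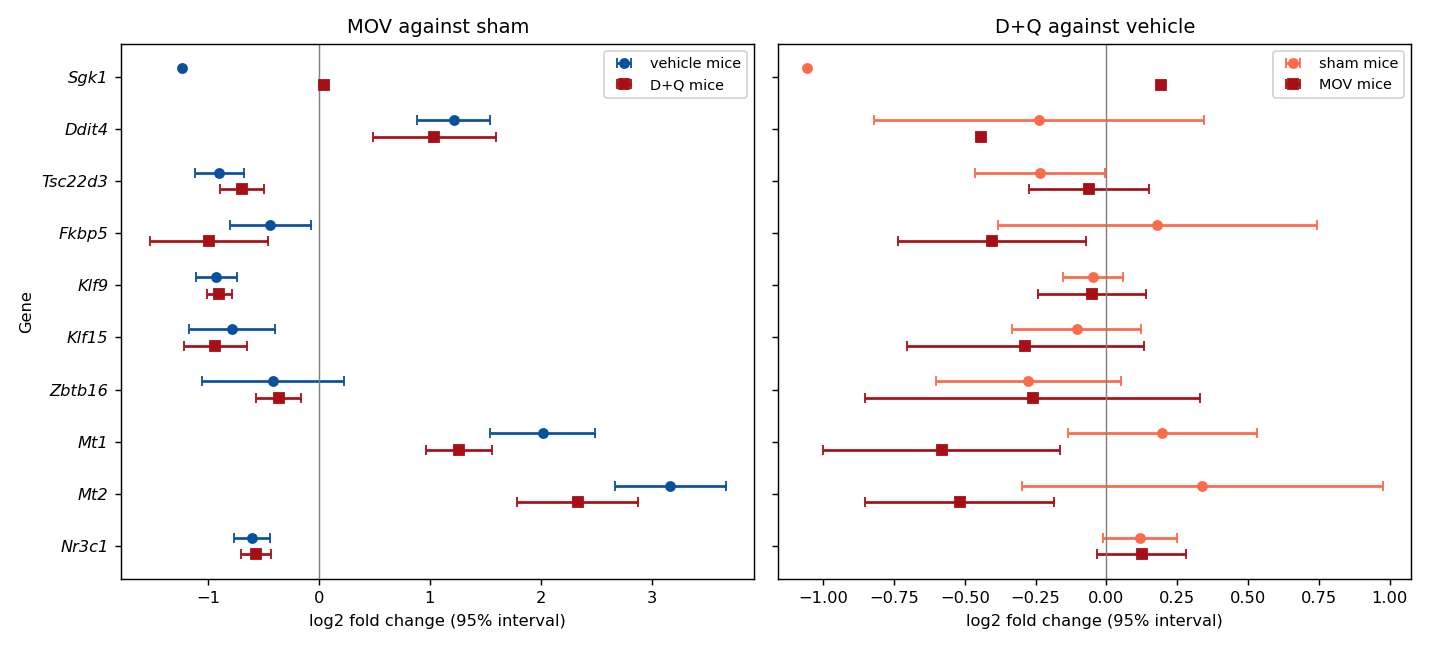
Log2 differences of the 10 members, for MOV against sham in one panel and D + Q against vehicle in the other, with 95% intervals from edgeR. Sgk1 in every comparison, and Ddit4 for D + Q against vehicle in MOV mice, are points without intervals. Ddit4, Mt1 and Mt2 lie right of 0 for MOV against sham and the rest lie left of it or, for Sgk1 with D + Q, near it.

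Set per kilobase of the canonical transcript, which allows levels of different genes to be compared, the order of the members differed between sham and MOV muscle. In vehicle sham mice Tsc22d3 was highest with 73.3 ± 8.11 CPM per kb (SD, n = 5) and Sgk1 next with 60.1 ± 11.5, and the ranges of these neighbours overlapped. Klf9 (29.4 ± 0.752), Klf15 (22.7 ± 1.61) and Nr3c1 (15.5 ± 1.24) followed, each apart from the next. Zbtb16 (10.5 ± 2.27), Fkbp5 (9.26 ± 1.73) and Mt1 (9.004 ± 1.65) overlapped, and Mt2 (5.50 ± 1.82) and Ddit4 (3.40 ± 0.769) were lowest.
In vehicle MOV mice Mt2 was highest with 49.1 ± 11.05 CPM per kb (SD, n = 5), ahead of Tsc22d3 with 39.2 ± 5.81 and Mt1 with 36.3 ± 11.6, whose ranges overlapped one after the other. Sgk1 was the fourth with 25.4 ± 4.48, within the range of Mt1, and Klf9 (15.4), Klf15 (13.2), Nr3c1 (10.2), Ddit4 (7.87), Zbtb16 (7.83) and Fkbp5 (6.81) followed, each overlapping the next. With vehicle the metallothioneins thus went, by mean level, from among the 3 lowest of the 10 members to among the 3 highest. With D + Q, Tsc22d3 was highest in sham mice (62.9), apart from Sgk1 (29.2), and Sgk1 overlapped Klf9 (28.8). In D + Q MOV mice Tsc22d3 (37.9), Mt2 (34.6), Sgk1 (29.3) and Mt1 (24.4) came first, each overlapping the next.

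D + Q itself called few genes. In sham mice 0 of the 9 members other than Sgk1 were called by edgeR, where 0.215% of 13926 genes were called and 0.0287% were called lower, and 0.697% had all D + Q mice below all vehicle mice. Sgk1 was chosen on this contrast, so its place among those genes carries no information. At an unadjusted p under 0.05 there was 1 of the other 9 members, Tsc22d3, with a log2 difference of -0.24 ± 0.105 (SE, n = 5 each; adjusted p = 0.477, edgeR), where 10.2% of all genes passed that level. The remaining 8 members had log2 differences between -0.28 (Zbtb16) and 0.34 (Mt2), none called.
In MOV mice 0% of 15238 genes and so 0 of the 10 members were called by edgeR, and DESeq2 and limma-voom called 0 members too. Sgk1 and Ddit4 were chosen on this contrast, so their place in that count carries no information. Leaving out Sgk1 and Ddit4, described above, 3 members passed an unadjusted p under 0.05, beside 8.79% of all genes, and all 3 were lower with D + Q. They were Fkbp5 with a log2 difference of -0.40 ± 0.154 (SE, n = 5 each; adjusted p = 0.524, edgeR), Mt1 with -0.58 ± 0.191 (SE, n = 5 each; adjusted p = 0.523, edgeR) and Mt2 with -0.52 ± 0.153 (SE, n = 5 each; adjusted p = 0.523, edgeR). For every member besides Sgk1 and Ddit4 the ranges of the D + Q and vehicle mice overlapped, whereas 1.44% of all genes had groups apart. The 95% intervals of the members nearest 0 were -0.24 to 0.14 for Klf9 and -0.27 to 0.15 for Tsc22d3.
Averaged over the 2 surgeries, 0 members were called by edgeR, where 0.146% of 15700 genes were, and beside 13.7% of all genes Nr3c1 passed an unadjusted p under 0.05. Sgk1 and Ddit4 are left out of that count, since they were chosen on contrasts that enter this mean. Nr3c1 was higher with D + Q by 0.13 ± 0.0491 (SE, n = 10 each; adjusted p = 0.228, edgeR) on the log2 scale, with values of 0.12 in sham and 0.12 in MOV mice. In the interaction of treatment and surgery 0.0127% of 15700 genes were called, and Sgk1 was the 1 member among them, as its choice had fixed. At an unadjusted p under 0.05 there were 2 others, Mt1 and Mt2, beside 5.71% of all genes.
Markers of other cell types were read in the same contrasts. The summed fibroblast markers had medians of 417 CPM in vehicle sham, 619 CPM in D + Q sham, 7400 CPM in vehicle MOV and 9375 CPM in D + Q MOV mice. Of these 5 markers 4 were higher with D + Q at an unadjusted p under 0.05 in sham and 4 in MOV mice, and edgeR called 0 of them. That level was passed by 10.2% of all genes in sham and 8.79% in MOV mice. Among other lists, 2 of 5 mural markers were higher at that level in sham mice. In MOV mice 1 of 6 macrophage markers was higher and 1 of 6 muscle fiber markers lower. The macrophage sums had medians of 445 and 554 CPM in vehicle and D + Q MOV mice. The part of these markers in the differences with D + Q was not tested.

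**Figure D3:**
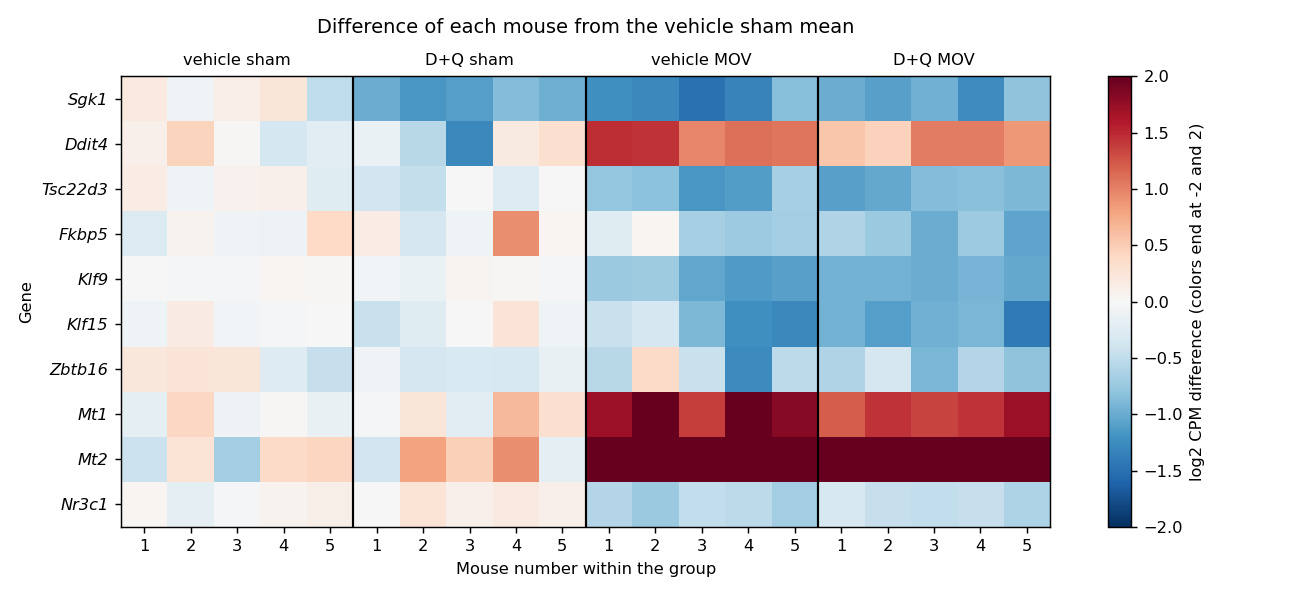
Log2 CPM of each member (rows) in each of the 20 mice (columns, by group), shown as the difference from that gene's mean in vehicle sham mice. The colour scale ends at 2 in either direction. Most rows divide by surgery, whereas Sgk1 is lower in all other columns than in the vehicle sham columns.

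Whether members rose and fell together between mice of the same group was measured with the group means taken out, in the 10 sham mice and the 10 MOV mice apart, over 45 pairs in each. In MOV mice 2 pairs passed, after adjustment over all 90 pairs. Mt1 and Mt2 had r = 0.927 and rho = 0.952 (permutation test within groups, two-sided, adjusted p = 0.0126 and 0.0257). Fkbp5 and Klf9 had r = 0.916 and rho = 0.952 (permutation test within groups, two-sided, adjusted p = 0.0126 and 0.0257).
Klf9 and Klf15 had r = 0.927 and rho = 0.964, of which the rho passed (permutation test, adjusted p = 0.0759 and 0.0257), and Fkbp5 and Klf15 had r = 0.870 and rho = 0.939, likewise (permutation test, adjusted p = 0.127 and 0.0299). In sham mice 0 pairs passed by r, 4 had an unadjusted p under 0.05, and Zbtb16 and Nr3c1 passed by rho alone, at -0.855 (permutation test, adjusted p = 0.0257). Sgk1 and Ddit4 were in none of these pairs. The pairs that passed by r depended on the scaling. With total counts they were, in MOV mice, Mt1 with Mt2 (r = 0.929) and Klf9 with Klf15 (r = 0.932; permutation test, adjusted p = 0.0180 and 0.0162) and, in sham mice, Zbtb16 with Nr3c1 (r = -0.808; permutation test, adjusted p = 0.0480). Fkbp5 and Klf9 then had r = 0.818 and did not pass (permutation test, adjusted p = 0.395).
For Fkbp5, Klf9 and Klf15 alike, vehicle MOV mice 1 and 2 were the highest of all MOV mice. Vehicle MOV mouse 2 also had the lowest macrophage marker sum (227 CPM) and fibroblast marker sum (4444 CPM) and the highest muscle fiber marker sum (98775 CPM) of the MOV mice. Mouse 1 had 445, 6690 and 85838 CPM for the same sums. The part of these markers in the correlations was not tested. Without mouse 2, Fkbp5 and Klf9 had r = 0.852 and Mt1 and Mt2 r = 0.935 (permutation test, adjusted p = 0.0463 for both). Without the 2 mice farthest from the median of the first gene, r was 0.914 for Fkbp5 with Klf9 and 0.893 for Mt1 with Mt2, and 0 pairs passed (permutation test, adjusted p = 0.112 and 0.118).

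**Figure D4:**
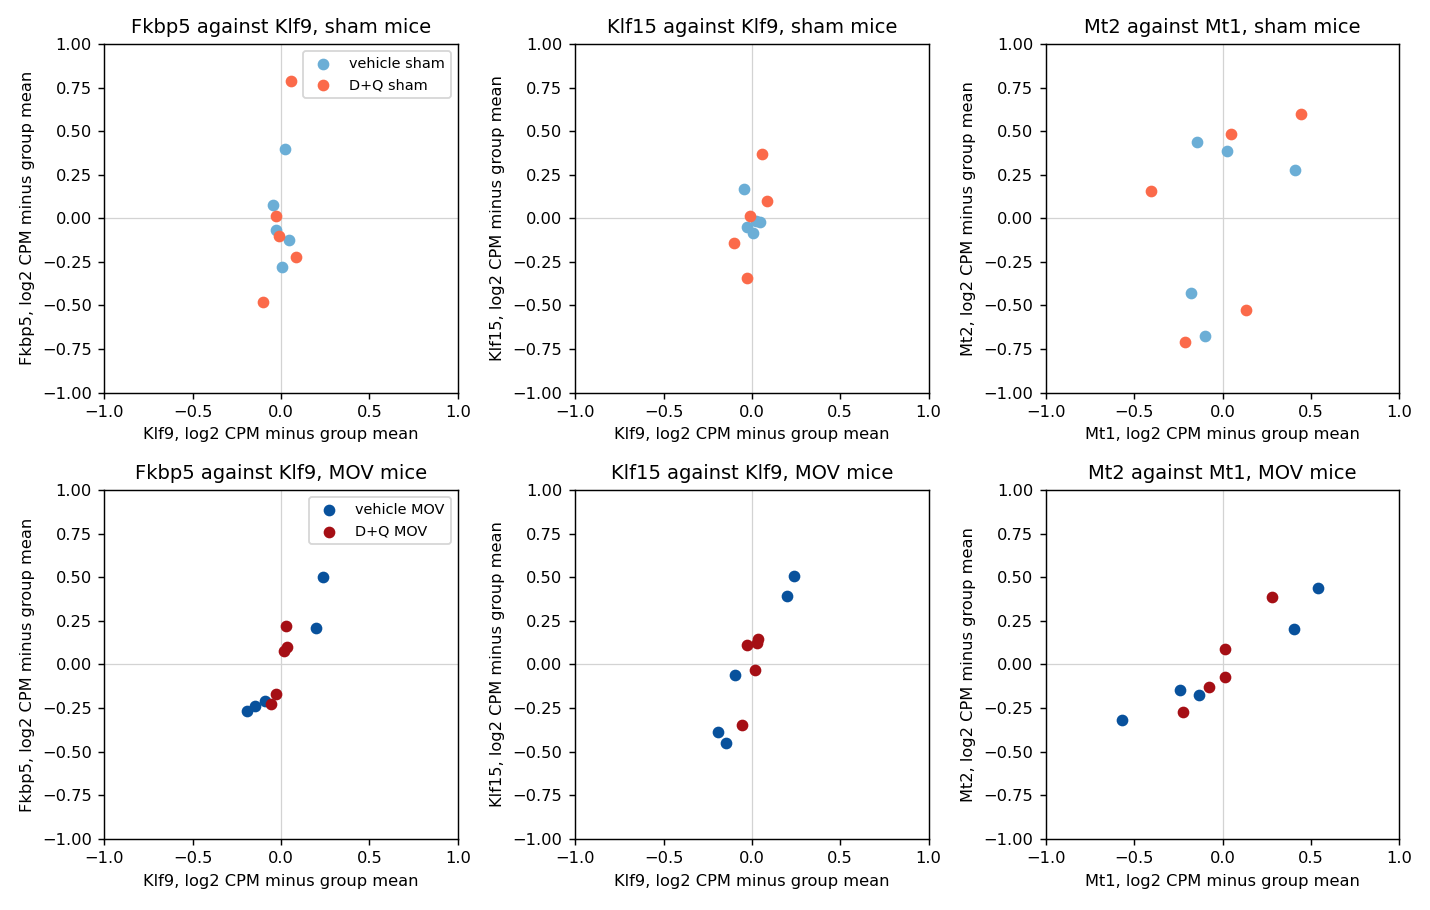
Deviations of log2 CPM from the group mean in each mouse, plotted as Fkbp5 against Klf9, Klf15 against Klf9 and Mt2 against Mt1, with sham mice in the upper and MOV mice in the lower panels and colours for treatment. In MOV mice the points of each pair run along a rising line, with r = 0.916, 0.927 and 0.927 in that order. Klf15 with Klf9 did not pass by r after adjustment. Klf9 varies little between sham mice.

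Lists of genes around the members were followed in the same comparison of MOV with sham, averaged over treatments, where 36.5% of all genes were higher and 36.3% lower. With all mice kept, edgeR called none of the genes in these lists in a comparison of D + Q with vehicle or in the interaction. Of 14 genes for the receptor's partners, steroid supply and chaperones, 2 were higher and 10 lower. Hsp90aa1, the inducible HSP90, had a log2 difference of 0.63, whereas the coactivator Ncoa1 had -0.70, H6pd, which supplies NADPH to the enzyme that regenerates active hormone, -0.70, and the co-chaperone Fkbp4 -0.63. Hsd11b1, that regenerating enzyme, had -0.15 and was not called. Hsd11b2, which inactivates the hormone, had at most 4 counts in any sham mouse and 7 to 47 in MOV mice. Of these 14 genes, 6 were higher and 5 lower with total counts, so the direction of the list depended on the scaling.

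Of 14 other glucocorticoid-induced regulators, 6 were higher and 3 lower. The risers were led by Anxa1, an anti-inflammatory annexin, at 2.08 on the log2 scale, Cdkn1a, the cell cycle inhibitor p21, at 1.60, and Cebpd at 1.21. The fallers were Arrdc2 at -1.51, Hif3a at -0.90 and Txnip at -0.82. Of 16 catabolic and metabolic targets in muscle, 1 was higher and 11 lower. Angptl4, an inhibitor of lipoprotein lipase, rose by 1.42 on the log2 scale, and the largest falls were in Mstn, which encodes myostatin, at -1.67, Prodh, of proline breakdown, at -1.38, and Ucp3, a mitochondrial carrier, at -1.31. With total counts 8 regulators were higher and 2 lower, and of the catabolic targets 6 were higher and 6 lower. Under that scaling Hif3a was at -0.51 and not called, and the other genes named here kept their direction and their call. With D + Q in sham mice, 6 of the 16 catabolic targets were higher and 0 lower at an unadjusted p under 0.05 (edgeR). That level was passed by 10.2% of all genes. Leaving out single mice gave 0 to 2 of these targets called higher. In MOV mice 1 target was higher with D + Q and 1 lower at the unadjusted level.

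Of the 13 measured relatives, activators and substrates of Sgk1, 3 were higher and 7 lower. Akt1 rose by 0.55 and the SGK substrate gene Ndrg1 by 0.40 on the log2 scale. Akt2, the insulin-responsive AKT, had -0.77, the ubiquitin ligase Nedd4l -0.62 and Ndrg2 -0.51. Of 12 genes for the Ddit4 relative and mTORC1 regulators, 1 was higher and 9 lower. Sesn3, a sestrin, rose by 0.65, and Ddit4l, the paralog of Ddit4, fell by 1.23 on the log2 scale, in the opposite direction to Ddit4 itself. Deptor, an mTOR inhibitor, had -0.94 and Tsc1 -0.69. With total counts the first list had 8 higher and 3 lower and the second 6 higher and 4 lower, so that neither list kept its direction, though the genes named did.

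Of 7 tested zinc and metallothionein genes beside Mt1 and Mt2, 5 were higher and 1 lower. Mt3 rose by 2.704 on the log2 scale, from 0.510 to 0.881 CPM in vehicle sham to 3.56 to 8.68 CPM in vehicle MOV mice, and the zinc importers Slc39a14 and Slc39a1 rose by 1.23 and 0.63. Mtf1, the factor that binds metal response elements, had -0.32, and with total counts 0.08, not called. Of 14 immediate early genes 12 were higher and none lower, led by Fosb at 2.80, Egr1 at 2.49 and Atf3 at 2.24 on the log2 scale. Egr1 ranged from 12.0 to 195 CPM within vehicle MOV mice.

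Likeness of pattern was measured as the root mean square difference of log2 CPM, scaled to mean 0 and SD 1 over the 20 mice, against 15699 genes. Among the genes nearest to Sgk1 were Extl2 (0.527), Mapk10 (0.536), Gm46430 (0.583) and Cecr2 (0.605). Cecr2 had means of 25.7, 16.5, 11.2 and 12.7 CPM in sham mice with vehicle, sham mice with D + Q, MOV mice with vehicle and MOV mice with D + Q. Of the members, Tsc22d3 was nearest to Sgk1, at rank 33 (0.699). Nearest to Ddit4 were Cdca3, Prdx2, Ip6k3, Gm48395 and Sema7a, and Mt1 was the nearest member, at rank 24. These are descriptions over mice that share their groups.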

How the data were processed

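RNA from whole plantaris of 20 mice was sequenced. The authors aligned reads with STAR 2.7.8a to GRCm39, quantified genes in Partek by expectation-maximization and deposited estimated counts per gene, with 1 column per mouse and no scaling. Estimation divides reads that fit several genes, and 29.8% of values were not whole. Here they were rounded and compared with edgeR 4.0.16 in R 4.3.3 (robust quasi-likelihood test, TMM factors), requiring 10 or more counts in 5 or more mice of the fit, with Benjamini-Hochberg adjustment over all genes and a threshold of 0.05. Pairs of groups were fitted alone, and the interaction and the 2 averaged effects on all 20 mice. DESeq2 1.42.0 and limma 3.58.1 served as alternatives. CPM was computed over all 20 libraries, and log2 CPM with a prior count of 2. Pair correlations were tested with 100000 permutations of deviations within groups. Labels give no litters or days, so p-values measure the spread between these animals. No 2 libraries of a group were alike within sampling noise.

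The members and the lists were chosen with earlier results of these data known. Named genes were all members, up to 3 rises and 3 falls per list among those called in the averaged MOV effect, and the 5 genes most like Sgk1 and Ddit4. Genes beyond that rule (Hsd11b1 and the ranges of Egr1 and Mt3) were picked after their values were seen. Some results that the rule names are not reported here. Promoters came from a RefSeq table of GRCm38.p6 and gene positions from GENCODE on GRCm39, and coordinates of the builds were not combined. On simulated data for the sham comparison (13926 genes), the test recovered 83% of genes given a log2 change of 1 and 45% of those given 0.5. In the MOV comparison of D + Q with vehicle (15238 genes) the shares were 83.5% and 29%.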

Additional observations from a re-analysis of the deposited data

Results flagged for a closer look

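In the D + Q sham group, Fkbp5 in mouse 4 was 62.3 CPM, far above the other 4 mice, which lay between 25.8 and 36.4 CPM. Without that mouse the log2 difference of D + Q from vehicle in sham muscle was -0.07 in place of 0.18, and neither value was called by edgeR. In the vehicle sham group, Klf15 in mouse 2 was 63.4 CPM, above the other 4 at 53.2 to 55.8 CPM. These were 2 of the 40 groups of 5 mice examined over the 10 members, and chance alone gives about 1 in 20.

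The treatment effect on Sgk1 in MOV mice minus that in sham mice was 1.25 on the log2 scale. Sgk1 was chosen for this difference, so it is repeated here as a description with no test. Leaving out each of the 20 mice in turn gave 1.18 to 1.36.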

How the results depend on the processing

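Each result was recomputed with DESeq2, with limma-voom and quality weights, with RLE factors or total counts as the scaling, with no or a higher count minimum, with a replicate block, with 1 fit on all 20 mice for the pairs of groups, and without each mouse. In D + Q against vehicle in sham muscle the number of members called was 1, and 0 to 1 as each mouse was left out, the member being Sgk1, which was lost without D + Q sham mouse 3 or 5 or vehicle sham mouse 1, 2 or 3. Sgk1 was chosen on these contrasts, so its calls are no evidence. Averaged over surgeries it was 0, and 1 (Sgk1) with DESeq2 and with limma-voom, and 0 to 1 as each mouse was left out, with 1 without vehicle MOV mouse 3 or 4 or vehicle sham mouse 5. Labels number the mice from 1 to 5 in each group without saying that a number is shared. Same-numbered mice deviated together with correlations of -0.15 to 0.19, and between 0 and 2 of the 5 mice per comparison correlated best with their own number. With the replicate block the interaction called 0 members in place of 1. In MOV against sham the members called numbered 8 to 10 with vehicle, 9 with D + Q and 10 over both treatments as each mouse was left out. Sgk1 was not set aside in these counts. Fkbp5 with vehicle lost its call with total counts, no count minimum, at least 50 counts and all 20 mice in one fit. Of the member pairs, 2 passed, both in MOV mice. With total counts 3 passed, 2 in MOV mice, with Klf9 and Klf15 in place of Fkbp5 and Klf9, and 1 in sham mice, Zbtb16 with Nr3c1. With TMM factors 0 passed without the 2 mice farthest from the median of the first gene, and 2 passed without vehicle MOV mouse 2, a setting chosen after seeing the data. Over all genes, D + Q against vehicle in sham called 30 genes, 133 with DESeq2, 66 with no count minimum, 49 with total counts, 19 with the replicate block or all 20 mice in a single fit and 2 to 74 as each mouse was left out. In MOV it called 0, and 11 with DESeq2 and 2 with the replicate block. Averaged over surgeries it called 23, 318 with DESeq2, 133 with limma-voom, 37 with the replicate block, 36 with no count minimum, 8 with total counts and 5 to 452 as each mouse was left out. The interaction called 2, and 1 with the replicate block. The cause of these shifts was not tested. The number of counts per library limits the precision of members with few counts.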
